A study of Mus musculus with 4 samples.

Results

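The genes described here are 49 genes of mitosis and chromosome segregation, taken by symbol from a list made with earlier results of these data known, and all 49 were found among the 23435 gene symbols analysed. Their level was measured by RNA sequencing in primary mouse oligodendrocytes, that is, precursor cells isolated from mice and placed for 1 day in medium with T3, the thyroid hormone that starts their differentiation in culture. The 2 control libraries carry a genotype label that joins lncOL1+/+ and lncOL1+/- without assigning either to a library, and the 2 knockout libraries are lncOL1-/-. All 4 share a mixed strain background, the same culture conditions and the same hormone. The age of the mice, the part of the lncOL1 locus that was removed, and whether the 2 libraries of a group came from separate animals or cultures were not stated in the labels, so the p-values measure the spread between these libraries, which may be technical. The series compares the genotypes to see how gene expression differs without the long noncoding RNA lncOL1.

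Dividing cells make the proteins of mitosis in a wave that peaks in G2 and M phase. Cyclin-dependent kinase 1, bound to cyclins A and B, starts mitosis. Condensin and topoisomerase II compact and disentangle the chromosomes, kinesin motors and microtubule-binding proteins build the spindle, and kinetochores attach each chromosome to it under watch of the spindle checkpoint. The anaphase promoting complex then marks cyclin B and securin for destruction, which frees separase to part the sister chromatids, before the cell divides at the midzone. In the oligodendrocyte lineage, precursors divide and differentiating cells leave the cell cycle.

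Levels are FPKM, a fragment count scaled to transcript length and library depth, which can be compared between genes. The number of genes at 1 FPKM or more was 11284 to 11357 per library. Depth relative to control replicate 1, read from the commonest ratio of low values, was 1.16 for control replicate 2 and 0.93 and 1.13 for the knockout libraries; absolute depth is unknown. lncOL1 itself (listed as 9630013A20Rik) was at 28.9 and 34.0 FPKM in control, compared with 5.54 and 5.06 in knockout (log2 fold change -2.36, SE 0.097, limma adjusted p = 0.000389), lower in both libraries labelled knockout. The culture held several oligodendrocyte markers at high level, with Mbp at 1501 to 2683 FPKM and Sox10 at 435.6 to 495.8. Others were lower, with Mog at 21.5 to 27.1 FPKM and Mobp at 5.96 to 9.33. Astrocyte markers were present too, with Gfap at 196.3 to 236.6 FPKM and Slc1a3 at 77.4 to 82.2. The lowest of the astrocyte markers was Gja1, at a mean of 2.85 FPKM over the libraries. The precursor marker Pdgfra was at 21.8 to 25.7 FPKM.

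RNA of the mitosis genes was lower in the lncOL1 knockout libraries across nearly the whole list, and by about the same amount in both of them. Summed over the 49 genes it was 182.1 and 182.0 FPKM in control, compared with 143.6 and 141.8 in knockout, 78.4% of control. In these bulk samples, fewer dividing cells and less RNA per cell cannot be told apart. In this sum the 2 libraries of each group lay close together and the groups did not overlap. For 12 of the 49 genes, a gap within a group exceeded the gap between the group means. The median member was at 77.6% of its control mean in knockout replicate 1 and at 76.3% in knockout replicate 2. For 41 of the 49 genes (83.7%) both knockout values lay under both control values, for 1 gene (Ccnb2) both lay above, and for 7 genes the groups overlapped. Among the 17397 genes above 0 in any library, both knockout values lay under both control values for 17.8% and above them for 21.9%. Among the 11361 genes tested, whose mean over the libraries was 1 FPKM or more, the lower share was 20.7%, against 40 of the 48 members that reached this mean. A gene whose groups do not overlap is here only one whose 4 values are ordered, whatever the size of the gap.

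**Figure D1:**
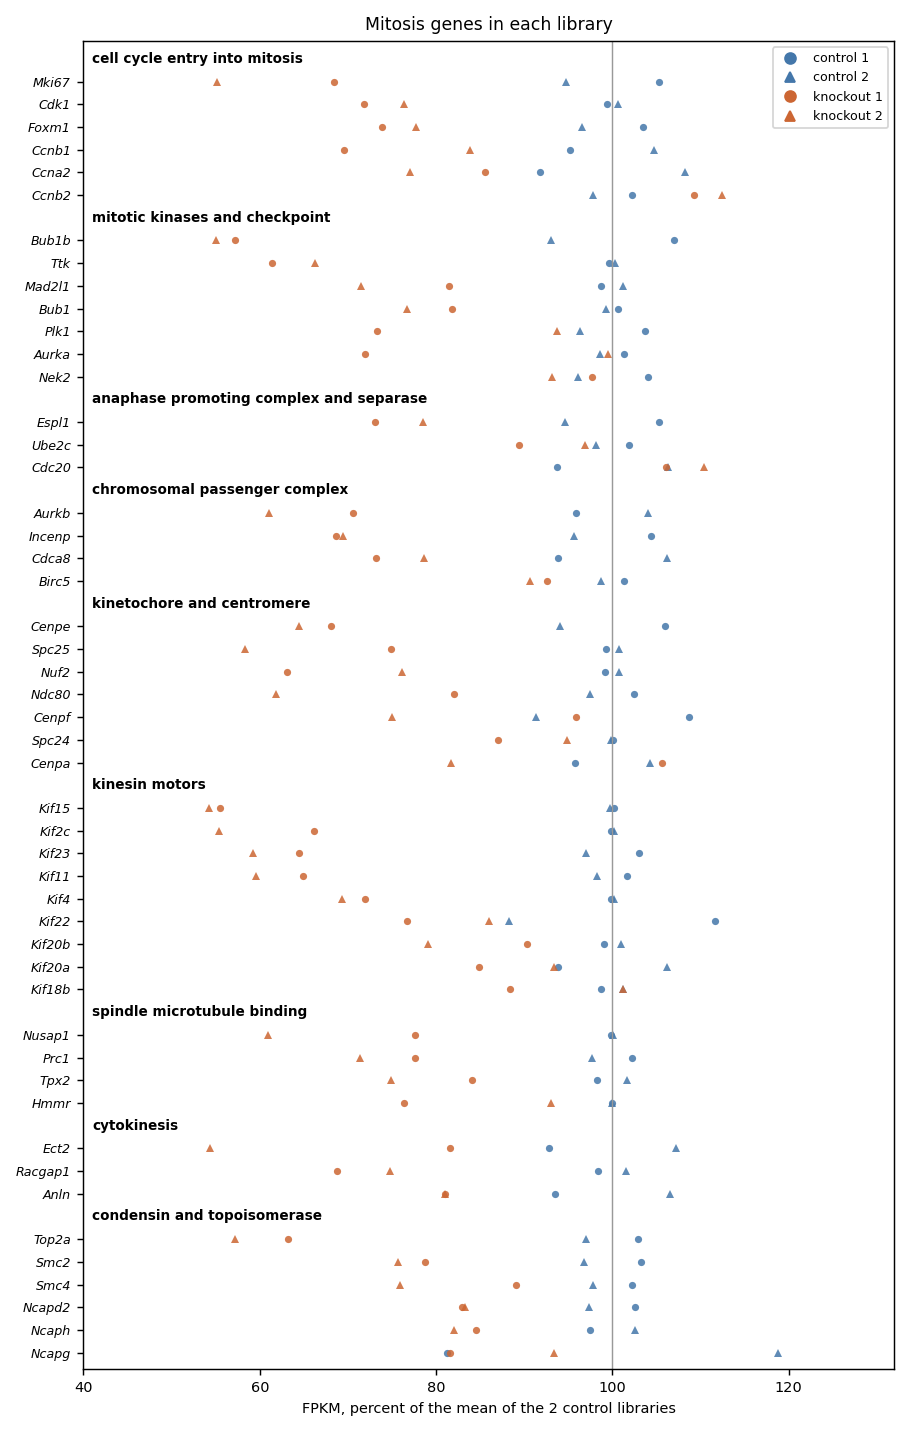
FPKM of each of the 49 genes in each library, as percent of the mean of the 2 control libraries (x axis), grouped by role and ordered within a role by the knockout mean. Circles are replicate 1 and triangles replicate 2, control in blue and knockout in orange; for 41 genes both knockout points lie left of both control points.

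The size of the difference varied between members. The knockout mean was under 65% of the control mean for 8 genes, from 65% to under 80% for 20, from 80% to under 95% for 18, and at 95% or more for 3 (Nek2, Cdc20 and Ccnb2). It ranged from 54.8% for Kif15 to 110.8% for Ccnb2. The members are RNAs of low level, from 0.604 FPKM for Kif20b to 11.7 for Ube2c among single values, and at these levels the log2(FPKM + 1) scale used for testing shrinks a fold change. Kif20b, at 0.756 and 0.771 FPKM in control, compared with 0.690 and 0.604 in knockout, did not reach the mean of 1 and was not tested. Of the tested members, Kif15, Kif23, Cenpe and Espl1 reached 1 FPKM in the control mean only.

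Top2a and Kif11 fell, and no other member passed the test. Over all 11361 genes tested, limma with Benjamini-Hochberg adjustment called 0.783% lower and 0.528% higher at an adjusted p under 0.05, and of the 48 tested members it called 2 lower and 0 higher. At an unadjusted p under 0.05, 29 of the 48 members (60.4%) were lower and 0 higher, against 6.58% and 7.13% of all genes tested. Kif15, Kif23 and Cenpe, which passed the filter only through their control values, are among the 29. The median log2 fold change of the tested members was -0.27, against 0.0046 for all genes tested. A second reading comes from the authors' deposited table, which pools the 2 libraries of a group. It lists 14 of the 49 genes as lower and 0 as higher at q under 0.05, where the table as a whole lists 4.04% of its tested genes as lower and 1.74% as higher. Beside Top2a, Kif11 and Mki67 (q = 2.04e-12, 3.87e-05 and 4.53e-11 in the authors' deposited table), the 14 are Foxm1, Cdk1, Bub1b, Incenp, Cenpe, Kif15, Kif2c, Nusap1, Racgap1, Smc2 and Ncapd2. The log2 fold change in the authors' deposited table is negative for 47 members and positive for 2, Ccnb2 and Cdc20. Both readings use the same 4 libraries and are not independent of each other.

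**Figure D2:**
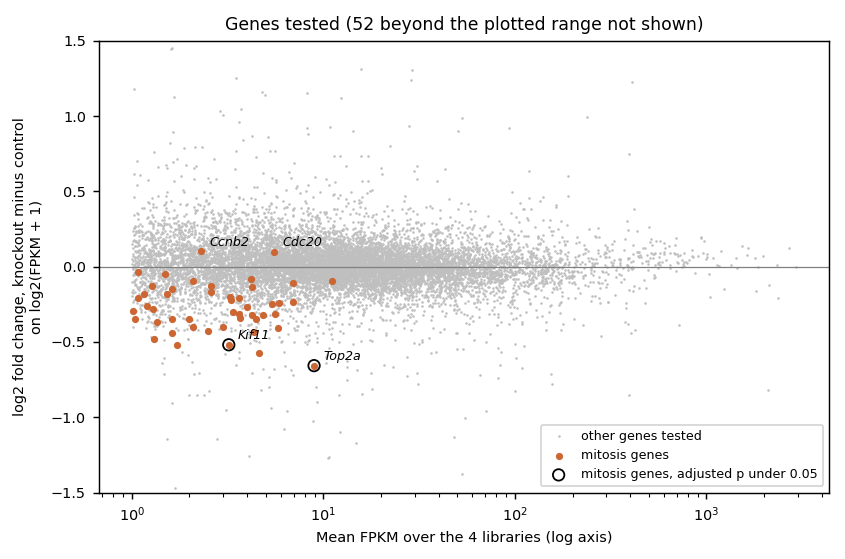
Mean FPKM over the 4 libraries (x axis, log scale) against the log2 fold change of knockout minus control on log2(FPKM + 1) (y axis) for all genes tested, with the mitosis genes in orange and the 2 with an adjusted p under 0.05 circled; 52 genes lie beyond the plotted range. The mitosis genes lie below 0 except Ccnb2 and Cdc20.

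Top2a (chr11:98992947-99024189 in mm10, by the deposited coordinates) encodes topoisomerase II alpha, which untangles sister DNA molecules before they separate. It was at 11.5 and 10.8 FPKM in control, compared with 7.06 and 6.38 in knockout. Both knockout values were far under both control values, a drop to 60.2% of control on the FPKM scale (11.2 ± 0.467 against 6.72 ± 0.481, SD, n = 2 each, log2 fold change -0.66, 95% interval -0.85 to -0.47, limma adjusted p = 0.0174). Kif11 (chr19:37376403-37421859) encodes the motor that pushes the spindle poles apart. It was at 4.02 and 3.89 FPKM in control, compared with 2.57 and 2.36 in knockout, 62.2% of control, again with a wide gap between the groups (log2 fold change -0.52, 95% interval -0.72 to -0.31, limma adjusted p = 0.0484). The call of Top2a was lost with no filter on low values (adjusted p = 0.0988) and with any library left out (0.110 to 0.197), and that of Kif11 in the same cases (0.153, and 0.198 to 0.296) and at a minimum mean of 0.5 FPKM (0.0503).

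Promoters of many mitotic genes carry a short element named CHR (cell cycle genes homology region), often beside CCAAT boxes. The CHR is bound by the MuvB core, which represses these genes in resting cells as part of the DREAM complex and activates them in G2 together with B-Myb and Foxm1, and CCAAT boxes are bound by NF-Y. Windows from 250 bases before to 50 bases after the transcription start were read from the RefSeq promoter table (GRCm38.p6, the assembly of mm10), which held 43 windows for 41 of the 49 genes. The CHR letters TTTGAA or TTCGAA stood on either strand in 35 of the 43 windows (81.4%), against 19.2% of all 32851 windows of this length in the table. CCAAT, searched separately on either strand, stood in 76.7% of the members' windows and 37.4% of all. For the list of 80 other mitosis genes used below the shares were 56.6% and 67.1%, and for 44 DNA replication genes 22.5% and 55.0%. These matches are letters in a window, not measured binding.

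The sequences show where these letters lie in the 5 members of smallest p, at most 2 from a role, among the members named by rule whose window holds them. Ccnb2, chosen after its values were seen, is added as the gene whose knockout values were above control. Each is printed on the strand of its gene, with the CHR letters of either strand in capitals.
Top2a (chr11:99024140-99024439, minus strand): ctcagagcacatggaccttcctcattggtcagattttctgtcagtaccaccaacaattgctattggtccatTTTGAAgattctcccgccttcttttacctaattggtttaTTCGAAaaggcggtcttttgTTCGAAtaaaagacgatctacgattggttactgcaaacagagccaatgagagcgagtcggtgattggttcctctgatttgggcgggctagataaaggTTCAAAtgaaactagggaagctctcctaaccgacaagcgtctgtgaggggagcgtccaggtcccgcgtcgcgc
Kif11 (chr19:37376132-37376431, plus strand): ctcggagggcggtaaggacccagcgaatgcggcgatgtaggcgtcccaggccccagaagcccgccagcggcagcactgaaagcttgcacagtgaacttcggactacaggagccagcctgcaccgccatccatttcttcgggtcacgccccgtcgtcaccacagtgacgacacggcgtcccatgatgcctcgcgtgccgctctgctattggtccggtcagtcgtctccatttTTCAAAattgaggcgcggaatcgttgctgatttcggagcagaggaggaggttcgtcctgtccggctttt
Mki67 (chr7:135716330-135716629, minus strand): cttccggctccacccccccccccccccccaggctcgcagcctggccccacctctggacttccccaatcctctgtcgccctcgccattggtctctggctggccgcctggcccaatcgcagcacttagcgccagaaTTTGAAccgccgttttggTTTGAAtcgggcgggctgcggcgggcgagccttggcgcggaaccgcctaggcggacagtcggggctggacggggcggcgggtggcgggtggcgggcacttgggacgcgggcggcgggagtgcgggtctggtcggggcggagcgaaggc
Racgap1 (chr15:99651607-99651906, minus strand): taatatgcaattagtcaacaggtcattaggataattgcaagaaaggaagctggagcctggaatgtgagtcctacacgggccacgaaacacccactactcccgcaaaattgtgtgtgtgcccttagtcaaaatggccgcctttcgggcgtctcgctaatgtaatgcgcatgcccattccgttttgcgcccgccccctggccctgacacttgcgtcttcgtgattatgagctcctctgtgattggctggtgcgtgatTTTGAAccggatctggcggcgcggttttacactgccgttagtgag
Bub1b (chr2:118597961-118598260, plus strand): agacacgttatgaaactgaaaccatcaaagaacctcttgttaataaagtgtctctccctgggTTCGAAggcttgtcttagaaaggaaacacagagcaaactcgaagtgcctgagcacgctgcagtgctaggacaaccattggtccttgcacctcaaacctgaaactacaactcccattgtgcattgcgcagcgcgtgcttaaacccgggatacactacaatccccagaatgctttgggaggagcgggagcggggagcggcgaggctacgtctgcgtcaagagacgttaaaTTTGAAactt
Ccnb2 (chr9:70421505-70421804, minus strand): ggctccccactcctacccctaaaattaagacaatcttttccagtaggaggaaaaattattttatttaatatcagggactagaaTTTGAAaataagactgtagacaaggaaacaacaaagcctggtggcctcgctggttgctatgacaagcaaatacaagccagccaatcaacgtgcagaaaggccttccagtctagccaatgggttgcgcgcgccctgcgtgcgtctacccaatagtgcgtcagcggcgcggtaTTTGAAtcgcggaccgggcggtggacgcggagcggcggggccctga

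The Top2a window holds 6 CCAAT matches and 4 CHR matches. One CHR match stands on the gene strand at 179 bases before the start and another on the opposite strand at 23 bases before it. Those at 140 and 120 bases before the start are TTCGAA, which reads the same on both strands. The window of Mki67 holds 2 CHR matches, at 116 and 98 bases before the start, and that of Kif11 holds 1, on the opposite strand at 19 bases before it. In Racgap1 the letters begin 6 bases after the start. Bub1b has 1 match at 188 bases before and 1 at 41 bases after the start, and Ccnb2 has 1 at 167 before and 1 at 5 after. Over all members' windows the matches lay near the start: in 34.9% of them a match began within the first 25 bases after it, against 1.43% of all windows. Knockout levels, given as a description, were similar with and without a match. The 33 members with a match were at a median of 75.9% of control (54.8% to 110.8%), the 8 with windows but no match at 76.6% (66.3% to 95.4%), and the 8 without a window in the table at 80.4%.

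**Figure D3:**
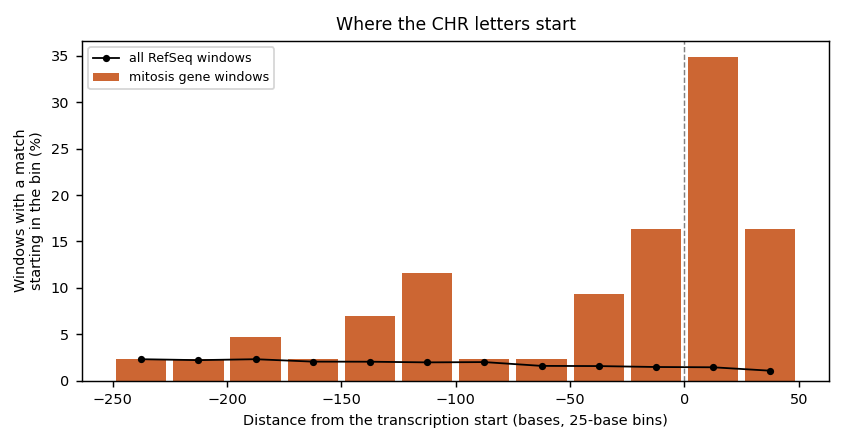
Percent of windows in which a CHR match begins in each 25-base bin (y axis) by distance from the transcription start in bases (x axis, dashed line at the start), as bars for the 43 windows of mitosis genes and as a line for all 32851 RefSeq windows. The bars peak at 34.9% just after the start, where the line is at 1.43%.

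Among the 6 genes that mark and drive entry into mitosis, 5 had both knockout values under both control values. Mki67 encodes Ki-67, the coat of mitotic chromosomes used as a proliferation marker. It was at 6.04 and 5.43 FPKM in control, compared with 3.93 and 3.16 in knockout, 61.8% of control with a wide gap between the groups, and missed the threshold (log2 fold change -0.57, limma adjusted p = 0.0682). Under a pseudocount of 0.1 and on the TPM scale its adjusted p was 0.0490 and 0.0451. Cdk1, the kinase itself, was at 4.18 and 4.24 against 3.02 and 3.21 FPKM, and its cyclin partner Ccnb1 at 5.25 and 5.77 against 3.83 and 4.62. Both were near 75% of control, with no overlap and no call (limma adjusted p = 0.124 and 0.229). Foxm1, the transcription factor that activates G2 and M genes, was at 4.27 and 3.98 in control, compared with 3.05 and 3.20 in knockout (75.7%, limma adjusted p = 0.162). For Ccna2, cyclin A2, the groups came close, with 5.48 and 6.46 against 5.11 and 4.60 FPKM. Ccnb2, the second B-type cyclin, differed from the others: it was at 2.23 and 2.13 FPKM in control and slightly above in knockout, at 2.38 and 2.45 (log2 fold change 0.10, 95% interval -0.11 to 0.31, limma adjusted p = 0.701).

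The 7 mitotic kinase and checkpoint genes were at 77.2% of control in sum, and 5 of them did not overlap. Bub1b encodes BubR1, a core part of the checkpoint complex that restrains anaphase. It was at 2.37 and 2.06 FPKM in control, compared with 1.27 and 1.22 in knockout, 56.1% of control (log2 fold change -0.52, limma adjusted p = 0.0771). Ttk, the kinase Mps1 that starts checkpoint signalling, was tight within groups at 1.65 and 1.66 against 1.02 and 1.10 FPKM (63.8%, limma adjusted p = 0.169). The checkpoint protein gene Mad2l1 was at 3.78 and 3.88 against 3.12 and 2.74. Bub1, the kinetochore kinase, was at 79.2% of control. Plk1 and Aurka, kinases of the centrosome and spindle poles, differed between the knockout libraries themselves. Plk1 was at 4.09 and 3.80 FPKM in control, compared with 2.89 and 3.70 in knockout, and Aurka at 2.82 and 2.74 against 1.998 and 2.76, so that knockout replicate 2 stood near or within the control range for both. Nek2, a centrosome kinase, was at 95.4% of control with overlapping groups.

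The 3 genes of the anaphase machinery were at 96.4% of control in summed FPKM, a sum held mostly by Ube2c and Cdc20. Cdc20, the activator of the anaphase promoting complex, was at 4.97 and 5.63 FPKM in control, compared with 5.62 and 5.85 in knockout, with overlapping groups (log2 fold change 0.10, 95% interval -0.10 to 0.30, limma adjusted p = 0.704). Ube2c, the ubiquitin-conjugating enzyme of that complex and the member of highest level, was at 11.7 and 11.3 against 10.3 and 11.1 FPKM, 93.1% of control (95% interval of the log2 fold change -0.27 to 0.08). Espl1, separase, was further from control and did not overlap, with 1.29 and 1.16 against 0.893 and 0.961 FPKM (75.8%, limma adjusted p = 0.473). Whether this role differs from the others was not tested. The 14 core subunits of the anaphase promoting complex, which cells express outside mitosis too, were at 101% of control in sum, with 2 of 14 lower and 0 higher without overlap and 0 called (limma, 0 at an unadjusted p under 0.05). Over all genes above 0 in any library, 17.8% were lower and 21.9% higher without overlap.

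All 4 genes of the chromosomal passenger complex, which corrects faulty attachments and then directs cytokinesis, had both knockout values under both control values. Incenp, its scaffold, was at 5.39 and 4.94 FPKM in control, compared with 3.55 and 3.59 in knockout, 69.1% of control with almost equal knockout values (log2 fold change -0.43, limma adjusted p = 0.0695, and 0.0490 with a pseudocount of 0.1). Aurkb, its kinase, was at 2.88 and 3.13 against 2.12 and 1.83 (65.8%, limma adjusted p = 0.110). Cdca8, borealin, was at 4.54 and 5.13 against 3.54 and 3.80. The remaining subunit gene, Birc5 (survivin), differed least, with 7.33 and 7.15 against 6.70 and 6.57 FPKM (91.6%).

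Of 7 kinetochore and centromere genes, 5 did not overlap. The NDC80 complex is the main microtubule anchor of the kinetochore, and its 4 subunit genes were lower to different degrees. Spc25 was at 2.49 and 2.52 FPKM in control, compared with 1.88 and 1.46 in knockout, and Nuf2 at 2.33 and 2.37 against 1.48 and 1.79. Both were under 70% of control (limma adjusted p = 0.173 and 0.198). Ndc80 was at 71.9% of control, with knockout replicate 2 (0.864 FPKM) further down than replicate 1 (1.15). Spc24 was at 2.20 in both control libraries and at 1.91 and 2.09 in knockout, 91.0% of control. Cenpe, the kinetochore motor, was at 66.3%, with 1.29 and 1.14 against 0.828 and 0.784 FPKM. For Cenpa, the histone H3 variant of centromeres, and Cenpf the groups overlapped: Cenpa was at 4.13 and 4.49 in control, compared with 4.55 and 3.52 in knockout.

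Of the 9 kinesin genes, 8 did not overlap, and Kif15 had the lowest percent of control of the 49 members. Kif15, a motor that works beside Kif11 in holding the bipolar spindle, was at 1.70 and 1.69 FPKM in control, compared with 0.940 and 0.918 in knockout, 54.8% of control with hardly any spread within groups (log2 fold change -0.48, limma adjusted p = 0.0900, and 0.0415 without the expression trend). Kif2c, the microtubule depolymerase MCAK, was at 2.02 and 2.03 against 1.34 and 1.12 (60.8%), and Kif23, a motor of the midzone, at 1.32 and 1.24 against 0.823 and 0.757 (61.8%). Kif4, a motor of chromosome arms and the midzone, was at 70.6%. Kif22, Kif20b and Kif20a were closer to control at 81.4%, 84.7% and 89.1%, and in Kif22 the control libraries differed from each other (4.07 and 3.22 FPKM against 2.80 and 3.14). Kif18b was at 94.8% of control with overlapping groups.

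The 4 spindle-binding protein genes and the 3 cytokinesis genes had both knockout values under both control values throughout. Prc1, which bundles midzone microtubules, was at 5.21 and 4.98 FPKM in control, compared with 3.96 and 3.64 in knockout (74.5%, limma adjusted p = 0.121). Nusap1, which links microtubules to chromosomes, was at 3.53 and 3.54 against 2.74 and 2.15, and Tpx2, the activator of Aurora A, at 4.37 and 4.52 against 3.73 and 3.33. Hmmr was at 84.7% of control, with knockout replicate 2 close to the control values. Among the cytokinesis genes, Racgap1 encodes a subunit of centralspindlin, the complex that positions the cleavage furrow. It was at 6.65 and 6.86 FPKM in control, compared with 4.64 and 5.05 in knockout, 71.8% of control (log2 fold change -0.41, limma adjusted p = 0.0723). Ect2, the exchange factor that it recruits, was at 1.78 and 2.06 against 1.57 and 1.04, with a wide spread in knockout. Anln, the furrow scaffold anillin, which postmitotic oligodendrocytes are also known to express, was at 1.57 and 1.79 against 1.36 and 1.36.

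Beside Top2a, the 5 condensin genes were at 77.2% to 87.5% of control. The ATPase subunit genes, shared by both condensin complexes, were Smc2 at 6.49 and 6.08 FPKM in control, compared with 4.95 and 4.76 in knockout (77.2%, limma adjusted p = 0.130) and Smc4 at 6.61 and 6.32 against 5.76 and 4.90 (82.5%, limma adjusted p = 0.310). Both had separate groups. The condensin I subunit genes Ncapd2 and Ncaph were each at about 83% of control, Ncapd2 with 7.74 and 7.35 against 6.26 and 6.29 FPKM. Ncapg, the third of these, overlapped because control replicate 1 (2.25 FPKM) lay under control replicate 2 (3.30) and at the knockout level (2.26 and 2.59). The ring complex cohesin, which holds sister chromatids together and serves other chromosome functions outside mitosis, gave values nearer to control: its 12 genes were at 95.4% in sum, with 5 lower and 1 higher without overlap and 0 called (limma, 0 at an unadjusted p under 0.05). Its lower share is above the 17.8% of all genes above 0 in any library, and its higher share is under their 21.9%.

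A further list of 80 mitosis genes that are no members was at 89.6% of control in sum, with 54 lower and 3 higher without overlap. Of all genes above 0 in any library, 17.8% were lower and 21.9% higher in this way. Of the 57 genes of this list that were tested, 0 were called by limma. At an unadjusted p under 0.05, 19 were lower and 1 higher, and the median log2 fold change of the 57 was -0.17. The authors' deposited table lists 2 of the 79 that it tested as lower, under the 4.04% of all its tested genes. The smallest p belonged to Cenph, a kinetochore gene, at 1.98 and 1.97 FPKM in control, compared with 0.882 and 1.03 in knockout (48.5%, limma adjusted p = 0.0526), and next to Pbk, a mitotic kinase gene, at 70.9% of control. Cenph passed the filter only through its control values, as its knockout mean was 0.957 FPKM. The same holds for Dlgap5, Melk, Hjurp and Shcbp1, and all of these are among the 19. The genes of highest level weigh most in the summed level of this list. They were Kpna2 at 94.6% and Zwint at 97.4% of control, with overlapping groups, and Bub3 at 92.7% and Ckap5 at 88.8%, lower without overlap. All of them are also expressed outside mitosis. DNA replication genes, which mark S phase, gave 28 of 44 lower and 2 higher without overlap and 86.1% of control in sum. None of the 42 tested was called by limma, 16 were lower and 0 higher at an unadjusted p under 0.05, and the median log2 fold change was -0.17. Mcm10, among the 16, passed the filter only through its control values (mean 1.30 FPKM in control, 0.900 in knockout). The authors' deposited table lists 8 of the 44 that it tested as lower, above that 4.04%. The medians of these lists were nearer to 0 than the -0.27 of the 48 tested members, a difference that was not tested. They do not cover equal shares of the lists: the filter kept 57 of the 80 other mitosis genes but 48 of the 49 members. The other mitosis genes left out ranged from Ska1, at 52.7% of control, to Troap, above control, and most were lower without overlap. The medians therefore cannot show how far the difference is particular to the members.

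**Figure D4:**
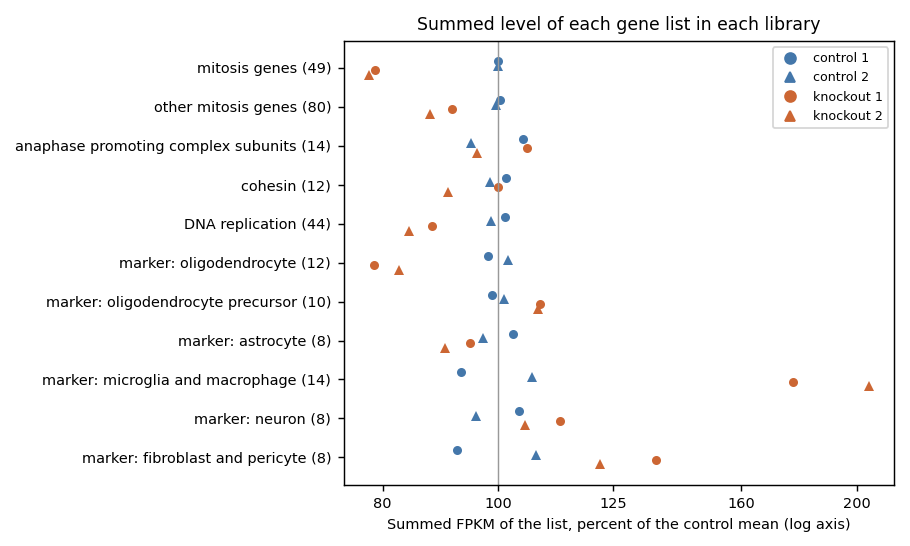
Summed FPKM of each gene list in each library as percent of the mean of the 2 control libraries (x axis, log scale), with the number of genes in brackets; circles are replicate 1, triangles replicate 2, blue control and orange knockout. The 49 mitosis genes lie near 78% in both knockout libraries, and the microglia and macrophage markers lie above control.

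Some markers of cell types differed between the genotypes as well. Of all genes above 0 in any library, 17.8% were lower and 21.9% higher without overlap. Oligodendrocyte markers were at 10060 and 10440 FPKM in sum in control, compared with 8060 and 8458 in knockout, with 7 of 12 lower and 2 higher without overlap, and Mbp was the one called (limma adjusted p = 0.00504). Of 10 precursor markers 5 were higher and 1 (Pdgfra) lower without overlap, with sums of 747.1 and 765.5 FPKM against 820.1 and 816.9 and 0 called by limma (4 higher at an unadjusted p under 0.05). Gpr17 alone, at 398.4 and 389.8 FPKM in control, compared with 435.5 and 437.2 in knockout, held most of the precursor sum and most of its difference. Microglia and macrophage markers were at 18.3 and 21.0 FPKM in control, compared with 34.8 and 40.3 in knockout, 11 of 14 higher without overlap, with Tyrobp, Laptm5 and Fcrls called higher by limma. None of the 14 was at 0, and P2ry12 and Trem2 stayed under 0.2 FPKM in every library. Astrocyte markers were at 92.5% of control in sum, with 4 of 8 lower and 1 higher without overlap. Neuron markers were at 109%, with 1 of 8 lower and 2 higher without overlap, near the shares of all genes. Map2, Gap43 and Tubb3 made up nearly all of the neuron sum. Map2 was at 89.1 and 97.0 FPKM in control, compared with 106.1 and 104.6 in knockout (limma adjusted p = 0.356), Gap43 ranged from 64.7 to 89.8 and Tubb3 from 27.1 to 28.2 with overlapping groups, while Rbfox3 and Stmn2 were under 0.25 FPKM. Of 8 fibroblast and pericyte markers, 6 (collagens, Dcn, Lum and Pdgfrb) were under 0.7 FPKM and lower without overlap, with Lum at 0 in both knockout libraries, while Acta2 was called higher (limma adjusted p = 0.0488). The 6 endothelial markers summed to less than 1 FPKM in each library, with Cldn5 at 0 in 3 of the 4. The part of these cell types in the mitosis gene values was not tested.

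Some member values may hold reads of a neighbour. In the GENCODE annotation of the same build, 12 of the 49 genes have an exon that overlaps a gene on the opposite strand (among them Ccna2, Cdc20, Cdca8, Kif20a, Kif4, Ncapg, Nusap1, Prc1 and Ube2c, whose neighbours are also listed in the files), and 3 overlap one on the same strand, with Top2a and Ncapd2 sharing theirs with small RNAs or an intronic transcript. Whether the counting used strand is unknown, so reads of opposite genes cannot be told apart. Ccnb1, Ccnb2, Kif22 and Kif4 have a pseudogene by name, which makes their values less certain. Of the 34 genes free of any such exon overlap, 29 were lower and 1 (Ccnb2) higher without overlap of the groups, and of the 15 others 12 were lower.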

How the data were processed

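RNA was sequenced from 2 control and 2 lncOL1 knockout samples. The authors deposited 1 table of FPKM per sample, per the file headers, and a Cuffdiff table with a pooled FPKM per group, a log2 fold change, and a p-value and q-value per gene. Build mm10 and the tools TopHat, Cufflinks, Cuffdiff and CASAVA come from the submitters' processing notes. Tool versions, annotation and strand setting: not given in the sources used here.

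Of 23931 rows, those sharing 1 of 258 symbols were summed, and 9 symbols whose status was not OK were left out. FPKM are not counts, so limma 3.58.1 (R 4.3.3, eBayes with trend, 2 residual degrees of freedom) was run on log2(FPKM + 1), knockout minus control, for the 11361 genes whose mean reached 1 FPKM. P-values were adjusted over all of them by Benjamini-Hochberg, and "called" means an adjusted p under 0.05. The script was tested on simulated data. Statements on overlap of groups and percent of control use FPKM directly and need no filter. The members and all lists were chosen with earlier results of these data known. Called members, and each role's 3 members of highest mean FPKM and 2 of smallest p, were named by rule with their library values; further members are given more briefly or chosen after their values were seen. Of the other mitosis genes, the 4 of highest mean and 2 of smallest p are named; 4 of that list and 1 cohesin gene were matched by a RefSeq synonym. Alternatives tried were the filter, pseudocount, scaling, variance model, rows sharing a symbol, replicate block and each library left out.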

Additional observations from a re-analysis of the deposited data

How the results depend on the processing

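Of the 48 tested members (31 at a minimum mean of 2 FPKM), 0 changed sign under another filter, pseudocount, scaling, variance model, handling of shared symbols or the replicate block. With a library left out 3 did: Cenpa ranged from -0.231 to 0.0649 (positive without knockout replicate 2), Kif18b from -0.104 to 0.0104 (without knockout replicate 1) and Ncapg from -0.327 to 0.0728 (without control replicate 2) on the log2 scale. Members lower without overlap numbered 41 to 44 under the scalings and shared symbols. With a library left out they numbered 43 or 44, but removing a value cannot make separate groups overlap. That count could therefore not fall under 41 and says nothing about stability. The median of the members was -0.372 with a pseudocount of 0.1, -0.340 with 0.5, -0.350 on the TPM scale, -0.296 after quantile normalization, and -0.290 to -0.272 with a library left out. A pseudocount that is smaller relative to the values shrinks folds less.

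Calls depended on the setting. Members called lower numbered 1 at a minimum mean of 0.5 FPKM (Top2a), 0 with no filter (27 at an unadjusted p under 0.05), 4 with a pseudocount of 0.1 (Top2a, Kif11, Mki67, Incenp), and 0 with any library left out (22 to 25 at an unadjusted p under 0.05), where fewer residual degrees of freedom are left. All genes called lower and higher numbered 3 and 1 with no filter, and 5 to 26 and 11 to 16 with a library left out. Of the other mitosis genes 1 (Cenph) was called at a minimum of 0.5 FPKM, on the TPM scale, after quantile normalization, without trend and with the replicate block. Of the replication genes 1 (Rrm2) was called at a minimum of 2 FPKM, with a pseudocount of 0.1, on the TPM scale and with the replicate block. lncOL1 was called in each alternative.

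The titles number the replicates 1 and 2 in both groups, with nothing to say that equal numbers pair samples, and the differences between replicates correlated at -0.0523 across genes between the groups. With the replicate block 183 genes were lower and 158 higher, and 5 members were lower (Top2a, Kif11, Mki67, Incenp, Racgap1). Fragment numbers are unknown, so precision is known only from 2 libraries a group.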
